A study of Mus musculus with 37 samples.

Results

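The mitochondrial ribosomal protein genes of the mouse are described here in ventral midbrain dopamine and GABA neurons. Members were the genes whose symbol begins with Mrpl or Mrps, followed by a number and at most 1 letter, and whose counts summed to at least 100 over all 37 libraries. The rule found 78 genes among the 57180 in the tables and used no difference between groups. No symbol of that form fell below the threshold, since the smallest total was 7344 counts (Mrps18b) and the largest 83454 (Mrpl12). Each library held the RNA of GFP-bound ribosomal complexes of 1 mouse. DAT;NuTRAP mice carried DAT-IRES-cre, which drives Cre from the promoter of Slc6a3, the dopamine transporter. VGAT;NuTRAP mice carried Vgat-ires-cre, which drives Cre from the promoter of Slc32a1, the vesicular GABA transporter. By their cross both models carried 1 copy of the Cre allele and 1 of the NuTRAP allele at Rosa26, which tags the cytosolic ribosomal protein L10a with EGFP wherever Cre has removed a stop cassette. The tissue was cut from horizontal slices and held both the substantia nigra pars compacta and the ventral tegmental area. DAT libraries came from 9 old mice of 21 months (4 females, 5 males) and 10 young mice of 8 to 10.5 months (5 females, 5 males). VGAT libraries came from 8 old mice (5 females, 3 males), aged 21 months apart from 1 female of 24 months, and 10 young mice of 7 to 9 months (6 females, 4 males). The labels also gave a first or a second batch: 8 and 11 of the DAT libraries and 6 and 12 of the VGAT libraries. The sources used here do not say whether a batch label means the same collection or sequencing run in both models.

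The mitochondrial ribosome translates the small set of proteins that mitochondrial DNA encodes, all of them core parts of the respiratory chain and ATP synthase. Its own proteins are encoded in the nucleus, made on cytosolic ribosomes and imported, so that a tagged cytosolic ribosome can capture their mRNA. A small subunit reads the mRNA and a large subunit joins the amino acids, and beside proteins with bacterial homologs each subunit holds proteins found only in mitochondria. Of the 78 members, 51 encode large subunit proteins and 26 small subunit proteins. Mrps18a and Mrps30 are counted as large subunit in spite of their symbols. Mrps36 belongs to neither subunit, since its product is a part of the 2-oxoglutarate dehydrogenase complex. Bacterial homologs account for 46 members and mitochondria-specific proteins for 31.

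Libraries held 13841253 to 38235015 counts, and the lowest count of any member in any library was 7. The labelled cell types were checked against marker lists. The 8 dopamine neuron markers summed to 12561 to 18043 CPM (counts scaled to the library size) in DAT libraries, against 999 to 3873 CPM in VGAT libraries. The 5 GABA neuron markers summed to 506 to 875 CPM in DAT libraries, against 3987 to 5126 CPM in VGAT libraries. Dopamine neuron markers were thus not absent from the VGAT libraries. Among DAT libraries, second-batch libraries detected 14323 to 18170 genes, against 19085 to 21051 in the first batch. The ranges overlapped in VGAT libraries, at 18485 to 21803 genes in the second batch and 19482 to 21176 in the first. Less RNA per cell and fewer cells of a type cannot be told apart in such bulk pulldowns.

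Promoter sequence is given for some of the members that the cell type comparison below turns on. The genes of this family are known to share binding sites for NRF1 and for ETS factors such as GABPA. RefSeq promoter windows (GRCm38.p6, 250 bases before to 50 after the start, the first start listed for each gene) matched 69 of the 78 members. Both strands were searched for CGCANGCG, the core of the NRF1 site, CCGGAAG, an ETS site, and AAGATGGC, a YY1 site. The NRF1 letters stood in 20 of 69 member windows (29.0%) and in 8.42% of the 27025 windows of all genes. The ETS letters stood in 25 of 69 member windows (36.2%) and in 9.12% of all windows. The YY1 letters stood in 12 of 69 member windows (17.4%) and in 2.88% of all windows. At least 1 of the 3 was found for 43 of 69 members (62.3%), against 18.1% of all windows. Stretches are printed only for members called in both batches whose window, with 1 listed start, held the NRF1 or ETS letters before the start. All of them therefore carry capitals, and members without such letters are not shown. The stretches below all lie before the start, and capitals mark the NRF1 letters or, in Mrps22, the ETS letters. Mrpl17 and Mrpl49 were higher in DAT libraries in both batches, Mrps22 was lower in both, and Mrpl12, Mrpl45 and Mrps21 were lower in the first batch and higher in the second. They lie at chr7:105811092-105811171 (- strand), chr19:6057785-6057864 (-), chr9:98601680-98601726 (-), chr11:120484521-120484600 (+), chr11:97315561-97315640 (+) and chr3:95871561-95871640 (-), in the order printed.
Mrpl17: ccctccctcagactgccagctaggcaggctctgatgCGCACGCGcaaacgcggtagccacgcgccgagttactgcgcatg
Mrpl49: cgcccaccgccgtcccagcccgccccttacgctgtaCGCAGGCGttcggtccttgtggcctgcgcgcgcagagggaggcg
Mrps22: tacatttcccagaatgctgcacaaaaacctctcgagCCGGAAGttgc
Mrpl12: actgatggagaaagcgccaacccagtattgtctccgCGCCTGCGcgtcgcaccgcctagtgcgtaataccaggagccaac
Mrpl45: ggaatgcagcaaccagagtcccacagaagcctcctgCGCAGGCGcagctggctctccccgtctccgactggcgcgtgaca
Mrps21: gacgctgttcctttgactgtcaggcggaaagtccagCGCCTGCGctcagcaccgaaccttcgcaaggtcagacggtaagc
The NRF1 letters of Mrpl12 and Mrps21 are on the opposite strand. Among matched members, the NRF1 letters stood in 2 of 6 that were higher in both batches, 0 of 4 that were lower in both and 3 of 6 that were called in opposite directions. The ETS letters stood in 1 of 6, 1 of 4 and 1 of 6 of the same groups, and so did the YY1 letters. With so few windows these shares are a description only.

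Every member was detected in every library, yet their levels differed widely. Levels were compared between genes only per kilobase of canonical transcript (GENCODE vM39), as CPM per kilobase. The median over members was 20.9 CPM per kilobase in DAT libraries and 19.4 in VGAT libraries. From the lowest to the highest member the level spanned 26.0-fold in DAT libraries and 31.8-fold in VGAT libraries. Mrpl20, a large subunit protein, had the highest level in both models, with a lowest, median and highest library of 75.1, 106 and 157 CPM per kilobase in DAT libraries, against 62.9, 74.2 and 95.8 in VGAT libraries. In DAT libraries it was followed by Mrps12 (median 90.6), whose product lies at the decoding centre, Mrps18a (79.0), Mrpl27 (77.2), whose bacterial homolog reaches toward the catalytic centre, and Mrpl42 (72.8). The same order in VGAT libraries ran Mrpl20, Mrpl42 (67.5), Mrps18a (63.8), Mrps12 (62.7) and Mrps21 (61.4). The ranges of these members over libraries overlapped, that of Mrpl20 included. Mrps12 ranged from 29.6 to 126 CPM per kilobase in DAT libraries, and Mrpl42 from 56.1 to 88.7 in VGAT libraries. Mrps18c was the lowest in both models, at a median of 4.08 CPM per kilobase in DAT libraries and 2.33 in VGAT libraries. It was followed upward by Mrpl1 (4.36), Mrps28 (4.80), Mrpl47 (5.24) and Mrps30 (5.62) in DAT libraries, and by Mrps28 (3.45), Mrpl1 (4.74), Mrps18b (4.98) and Mrpl32 (5.33) in VGAT libraries. Of the 3 paralogs of bacterial S18, Mrps18a, which sits in the large subunit, was thus near the top and Mrps18b and Mrps18c, of the small subunit, near the bottom. The 5 highest members in each model had canonical transcripts of 555 to 887 bases. The 5 lowest had 2896 to 4277 bases, apart from Mrps18b (1288). Whether the ranks hold with other transcripts of these genes was not tested. Exons of 47 members overlap those of a gene on the other strand and exons of 8 overlap a gene on the same strand in that annotation. The libraries were directional but the strand setting of the counting is not given in the sources used here, so values of these members are uncertain to that extent.

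**Figure D1:**
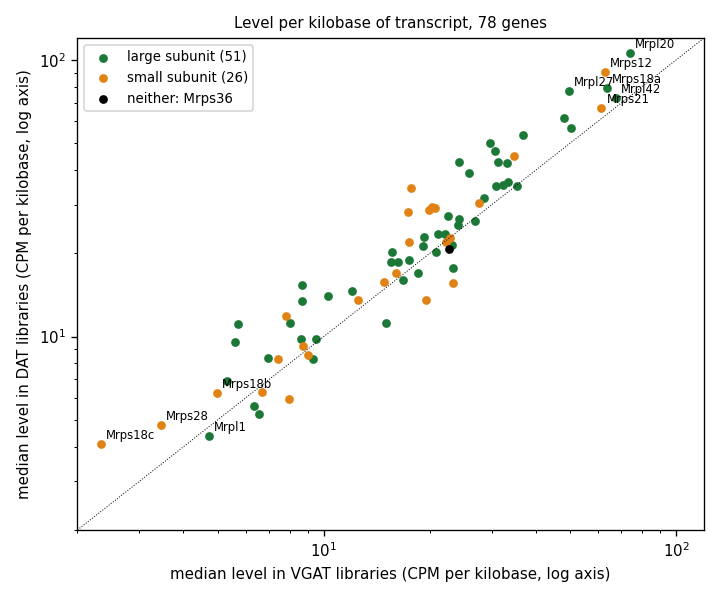
Median level of each of the 78 genes in VGAT libraries (x axis) and DAT libraries (y axis), in CPM per kilobase of canonical transcript on log axes, coloured by ribosomal subunit. The dotted line marks equal levels; Mrpl20 is at the top and Mrps18c at the bottom in both models.

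The summed level of the 78 genes differed between the models in opposite directions in the 2 batches. It was 3172, 3758 and 4212 CPM (lowest, median and highest library) in second-batch DAT libraries, against 2627, 2766 and 2902 CPM in second-batch VGAT libraries, with no overlap. In the first batch it was 2821, 2908 and 3311 CPM in DAT libraries, against 2959, 3230 and 3338 CPM in VGAT libraries, and the ranges overlapped. Members took up 0.261 to 0.415% of the counts of a library. A single value pooled over both batches therefore averages 2 different patterns, and both are given below.

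**Figure D2:**
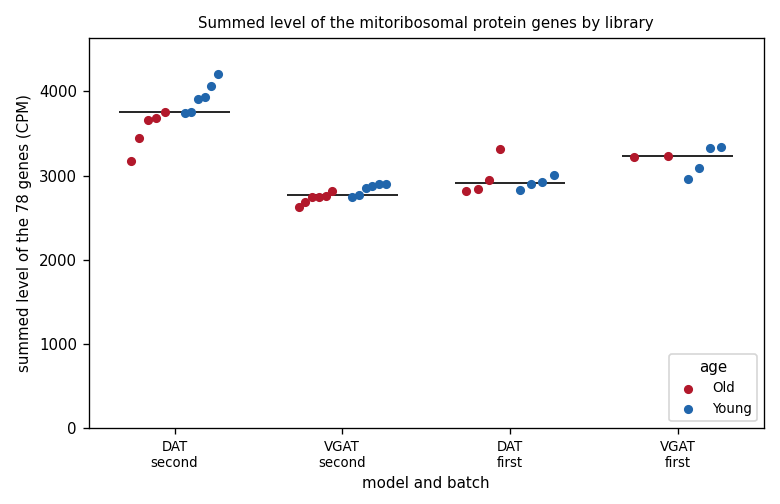
Summed level of the 78 genes in each library (y axis, CPM with TMM factors) by model and batch (x axis), with old mice in red to the left of young mice in blue and a line at the median of each group. Second-batch DAT libraries lie between 3172 and 4212 CPM, above all second-batch VGAT libraries (2627 to 2902 CPM), while the first-batch groups overlap.

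Pooled over both batches, the members were more often higher than lower in dopamine neurons. The comparison asks how the translatomes of the 2 cell types differ, and was fitted with the edgeR quasi-likelihood test over 16898 genes with 1 batch term. A gene was called at an adjusted p below 0.05 over all genes. Of 78 members, 48 were called higher in DAT libraries, where 30.0% of all genes tested were called higher. A further 9 were called lower, where 30.4% of all genes were. The median log2 fold change (DAT over VGAT) of members was 0.26, against 0.01 for all genes tested, and 64 of 78 were positive. In young mice 42 members were called higher and 5 lower (all genes: 24.3% and 25.4%), and in old mice 36 and 7 (22.7% and 24.1%). The strongest by p-value among the higher members were Mrpl17, Mrpl41, Mrpl23, Mrpl54, Mrpl49, Mrps15, Mrps25 and Mrps10, with log2 fold changes of 0.51 to 0.94. With the first batch fitted alone Mrps15 was not called (0.14 ± 0.09, edgeR adjusted p = 0.218). Nor were Mrps25 (0.11 ± 0.07, edgeR adjusted p = 0.196) and Mrpl54, given below, called there. Those with the smallest p among the lower members were Mrps5, Mrpl35, Mrps22, Mrps2, Mrpl4, Mrpl3, Mrpl18 and Mrpl1, with log2 fold changes of -0.58 to -0.19. Markers of other cells also differed between the models in this fit: 8 of 8 oligodendrocyte, 9 of 10 astrocyte and 6 of 6 endothelial markers were called higher in DAT libraries. Oligodendrocyte markers summed to 516 to 2306 CPM in DAT libraries, against 253 to 997 CPM in VGAT libraries, and their part in the members' values was not tested.

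Within each batch the counts differed sharply. These values come from a fit of model by batch that was added after the data were seen. They set DAT against VGAT libraries of the same batch label, and if the label stands for different runs in the 2 models, run and cell type cannot be told apart in them. Second-batch libraries gave 60 members higher and 4 lower in DAT, against 30.1% and 31.3% of all genes, with a median log2 fold change of 0.47. First-batch libraries gave 7 higher and 17 lower, against 14.9% and 15.3% of all genes, with a median of -0.10. The difference between the batches (second minus first) was itself tested, and 53 members were called higher and 0 lower by edgeR, against 12.7% and 16.4% of all genes. Its median over members was 0.55, with 76 of 78 positive, against -0.03 over all genes, and 65 members, all of them positive, had an unadjusted p below 0.05. No other tool was run on that difference. Members called higher in both batches numbered 7 of 78 (against 11.8% of all genes), and those lower in both 4 of 78 (against 12.4%). Both are smaller shares of the members than of all genes. A further 6 were called in opposite directions (1.82% of all genes), 47 were higher in the second batch only, 7 were lower in the first only and 7 were called in neither.

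**Figure D3:**
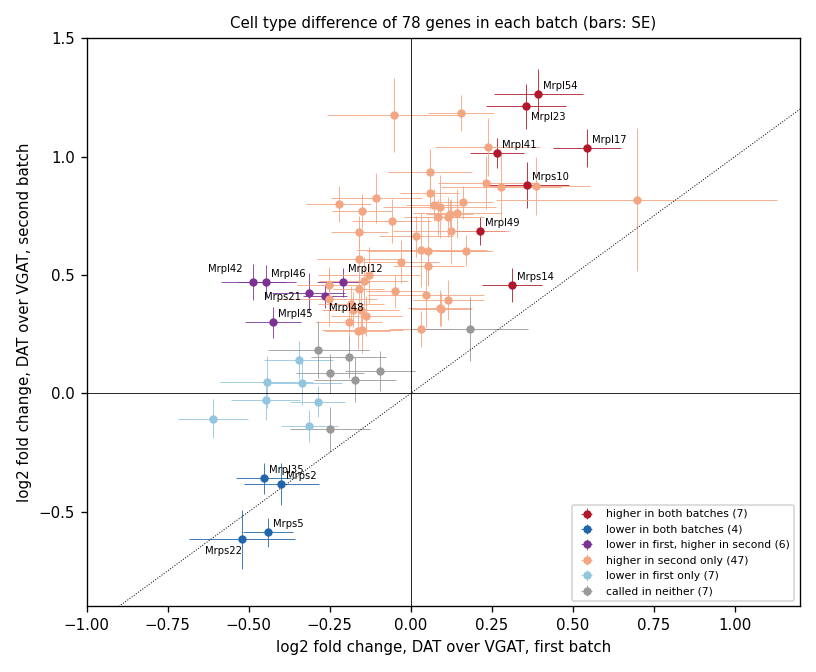
Log2 fold change of DAT over VGAT for each of the 78 genes in the first batch (x axis) and the second batch (y axis), with SE as bars, coloured by the calls in the 2 batches (counts in the legend). Of 78 points, 76 lie above the dotted line of equal values; the 4 genes lower in both batches and Mrps14 lie near it.

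The 7 members higher in dopamine neurons in both batches were Mrpl17, Mrpl23, Mrpl41, Mrpl49, Mrpl54, Mrps10 and Mrps14. Mrpl17, a large subunit protein with a bacterial homolog (chr7:105452413-105460372, - strand, GRCm39), had 48.4, 82.0 and 95.3 CPM in second-batch DAT libraries, against 34.1, 40.3 and 42.4 CPM in second-batch VGAT libraries. In the first batch it had 49.2, 60.5 and 70.6 CPM in DAT libraries, against 34.8, 43.4 and 45.3 CPM in VGAT libraries. The groups did not overlap in either batch, and the log2 fold change was 1.04 ± 0.08 (SE, edgeR adjusted p = 2.51e-15) in the second batch and 0.54 ± 0.11 (adjusted p = 5.2e-05) in the first. Mrpl23, whose bacterial homolog lines the rim of the peptide exit tunnel, had 23.5, 35.2 and 45.4 CPM in second-batch DAT libraries, against 12.2, 15.3 and 19.1 CPM in VGAT libraries of that batch. Its first-batch levels of 22.5, 24.5 and 29.6 CPM in DAT libraries overlapped those of 18.5, 19.2 and 26.8 CPM in VGAT libraries, though the test still called it (0.36 ± 0.12, edgeR adjusted p = 0.0235).

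Mrpl41, a mitochondria-specific large subunit protein, had 68.9, 90.0 and 114 CPM in second-batch DAT libraries, against 42.5, 44.1 and 52.5 CPM in VGAT libraries, without overlap. Its fold changes on the log2 scale were 1.01 ± 0.06 in the second batch and 0.27 ± 0.08 in the first, and the difference between them passed its test (0.75 ± 0.10, edgeR adjusted p = 2.11e-07). Mrpl54, also mitochondria-specific, had the largest second-batch value of the 7, 1.26 ± 0.10, beside 0.39 ± 0.14 in the first batch. With the first batch fitted alone that call was lost (0.39 ± 0.18, edgeR adjusted p = 0.0915). Mrpl49 gave 0.69 ± 0.06 and 0.21 ± 0.08 and Mrps10, of the small subunit head, 0.88 ± 0.10 and 0.36 ± 0.13, second batch first in each. Mrps14 stood apart from these in that its 2 values, 0.46 ± 0.07 and 0.31 ± 0.09, could not be told from one another (difference 0.14 ± 0.12, edgeR adjusted p = 0.411). Exons of Mrpl41, Mrpl49, Mrpl54 and Mrps14 overlap a gene on the other strand (Dph7 and Pnpla7, Syvn1, Matk and Cacybp), whereas those of Mrpl17, Mrpl23 and Mrps10 overlap none.

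The 4 members lower in dopamine neurons in both batches were Mrps5, Mrpl35, Mrps22 and Mrps2. Mrps5, a small subunit protein with a bacterial homolog whose variation among inbred mouse lines has been linked with lifespan (chr2:127429135-127448789, + strand), had 38.9, 55.4 and 61.9 CPM in second-batch DAT libraries, against 74.8, 82.9 and 89.3 CPM in VGAT libraries. In the first batch it had 61.8, 71.8 and 77.5 CPM in DAT libraries, against 90.8, 97.3 and 112 CPM in VGAT libraries. No DAT library reached the lowest VGAT library of its batch. The log2 fold change was -0.59 ± 0.06 (edgeR adjusted p = 1.42e-11) in the second batch and -0.44 ± 0.08 (adjusted p = 1.13e-05) in the first. Mrpl35, of the large subunit, had 36.2, 41.9 and 46.2 CPM in first-batch DAT libraries, against 54.6, 59.8 and 61.8 CPM in VGAT libraries, and its ranges overlapped in the second batch (31.5 to 53.8 CPM in DAT libraries, 48.6 to 62.0 CPM in VGAT libraries). Mrps22, a mitochondria-specific small subunit protein, had 8.6, 18.9 and 28.5 CPM in second-batch DAT libraries, against 24.4, 27.9 and 35.4 CPM in VGAT libraries, with some overlap. Mrps2 gave -0.38 ± 0.09 in the second batch and -0.40 ± 0.12 in the first. The difference between batches did not pass its test for any of the 4, with values of -0.15 ± 0.10 (Mrps5), 0.10 ± 0.11 (Mrpl35), -0.10 ± 0.21 (Mrps22) and 0.02 ± 0.15 (Mrps2) and edgeR adjusted p from 0.296 to 0.959. Exons of Mrpl35 overlap Reep1 and those of Mrps22 overlap Copb2 and Gm37637 on the other strand.

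The other lower members named for the pooled comparison did not hold in the second batch alone. There Mrpl4, Mrpl3, Mrpl18 and Mrpl1 had edgeR adjusted p of 0.124, 0.0708, 0.637 and 0.180. Mrpl19 was called lower in the pooled comparison as well. In the model by batch fit it was lower in the first batch and not called in the second. The pooled call of Mrpl18 was also lost without 1 old DAT female (replicate 4, -0.16 ± 0.07, edgeR adjusted p = 0.0502) or 1 old VGAT male (replicate 1, -0.15 ± 0.07, adjusted p = 0.0689). The call of Mrpl1 was lost without 1 old DAT male (replicate 4, -0.16 ± 0.07, edgeR adjusted p = 0.0522) or 1 young VGAT female (replicate 2, -0.17 ± 0.08, adjusted p = 0.0506). It was lost as well with the first batch alone (edgeR adjusted p = 0.0526), with the replicate block (0.0793), with no batch term (0.0822) and with a count filter of 50 (0.0535). Mrpl18 was also not called with a count filter of 50 (edgeR adjusted p = 0.0587) or in mice of the main ages (0.0723), nor Mrpl3 with no batch term (0.0513). Mrpl4, of the large subunit, had 29.2, 34.2 and 42.9 CPM in second-batch DAT libraries, against 33.3, 39.4 and 42.7 CPM in VGAT libraries, so the groups overlapped. In the first batch it had 22.8, 25.4 and 33.1 CPM in DAT libraries, against 30.8, 43.1 and 52.4 CPM in VGAT libraries.

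Opposite calls in the 2 batches were made for Mrpl12, Mrpl42, Mrpl45, Mrpl46, Mrpl48 and Mrps21. Mrpl46, a mitochondria-specific large subunit protein, had 41.6, 45.1 and 50.4 CPM in second-batch DAT libraries, against 28.3, 33.5 and 41.4 CPM in VGAT libraries, without overlap. In the first batch it had 29.1, 34.5 and 39.8 CPM in DAT libraries, against 44.4, 48.5 and 54.2 CPM in VGAT libraries, again without overlap but in the other direction. Its log2 fold changes were 0.47 ± 0.07 and -0.45 ± 0.09, and they differed by 0.92 ± 0.12 (edgeR adjusted p = 2.91e-08). Mrpl42 gave 0.47 ± 0.08 in the second batch and -0.49 ± 0.10 in the first. Mrpl45, which in human mitochondria helps to hold the ribosome at the inner membrane, gave 0.30 ± 0.07 and -0.43 ± 0.09 in the same order, and Mrpl48 gave 0.41 ± 0.05 and -0.26 ± 0.07. The pooled fit called none of Mrpl42, Mrpl45, Mrpl46 and Mrps21, whose pooled values lay between 0.03 and 0.15 on the log2 scale.

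**Figure D4:**
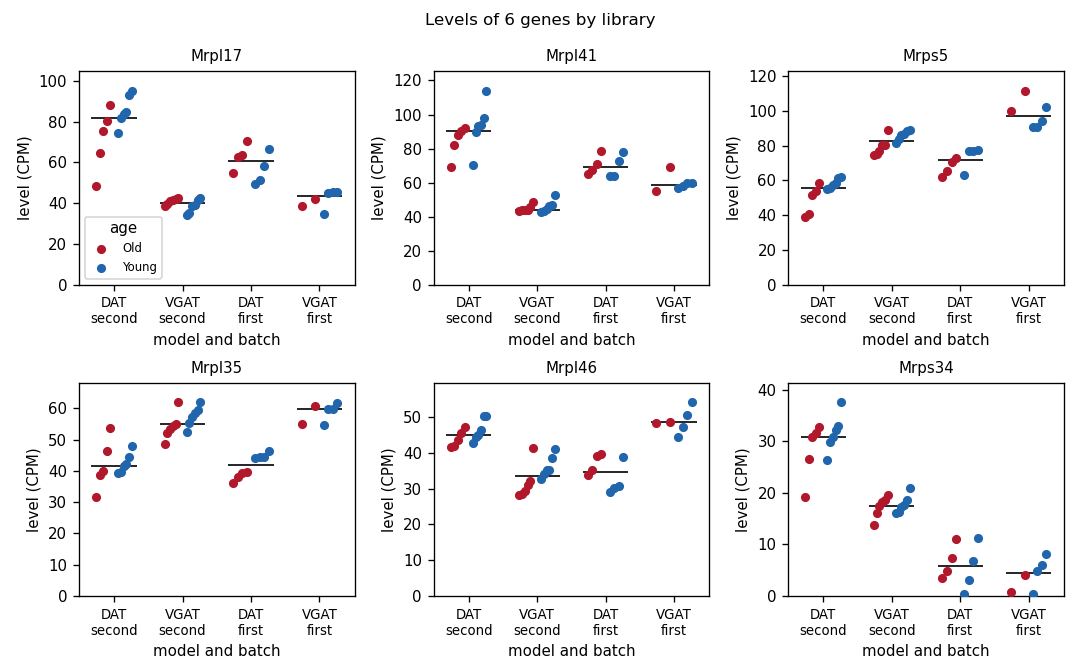
Level in each library (y axis, CPM with TMM factors) of Mrpl17, Mrpl41, Mrps5, Mrpl35, Mrpl46 and Mrps34 by model and batch (x axis), old mice in red to the left of young mice in blue, with a line at each median. Mrps5 is lower in DAT than VGAT libraries in both batches, Mrpl46 changes direction, and Mrps34 is above 13 CPM in the second batch and below 12 CPM in the first in both models.

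Members of known special role did not share 1 pattern. Mrpl10, Mrpl11 and Mrpl12 form the stalk and its base, where translation factors dock. They were pooled at 0.18 ± 0.06, 0.36 ± 0.08 and 0.22 ± 0.07 on the log2 scale, and all 3 passed the edgeR test (adjusted p of 0.0119, 9.86e-05 and 0.00911). In the first batch Mrpl10 (0.03 ± 0.10) and Mrpl11 (0.05 ± 0.11) were not called and Mrpl12 was lower (-0.21 ± 0.08). Without 1 young DAT female (replicate 3), which had the highest Mrpl10 level of all libraries at 79.6 CPM, Mrpl10 was at 0.10 ± 0.05 on that scale and was no longer called (edgeR adjusted p = 0.0878), and with no count filter it was not called either (0.14 ± 0.07, adjusted p = 0.0841). Mrpl58, a peptidyl-tRNA hydrolase that frees stalled ribosomes, gave 0.43 ± 0.07 in the second batch and -0.05 ± 0.09 in the first. The S18 paralogs gave 0.80 ± 0.07 (Mrps18a), 0.60 ± 0.15 (Mrps18b) and 1.04 ± 0.12 (Mrps18c) in the second batch, and values of 0.03 to 0.24, none of them called, in the first. Mrps36, the member outside the ribosome, was called in neither batch (0.08 ± 0.08 in the second and -0.25 ± 0.11 in the first), but was called lower with the first batch fitted alone (-0.28 ± 0.09, edgeR adjusted p = 0.0161).

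Calls were spread over both subunits. In the pooled comparison 33 of 51 large subunit members were called higher and 6 lower (median log2 fold change 0.27), and 15 of 26 small subunit members were called higher and 3 lower (median 0.28). In the second batch 40 large subunit members were higher and 1 lower, and 20 small subunit members were higher and 3 lower. First-batch libraries gave 5 large subunit members higher and 11 lower (median -0.11), and 2 small subunit members higher and 6 lower (median 0.06). Members with bacterial homologs (31 of 46 higher, 8 lower, median 0.29) and mitochondria-specific members (17 of 31 higher, 1 lower, median 0.22) were pooled in the same way. Of all genes tested, 30.0% were higher and 30.4% lower in the pooled comparison, 30.1% and 31.3% in the second batch and 14.9% and 15.3% in the first. Whether these classes differ was not tested.

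Batch moved the members in opposite directions in the 2 models. Within DAT libraries (second over first batch) 52 members were called higher and 2 lower, against 17.3% and 21.8% of all genes, with a median log2 fold change of 0.37. Within VGAT libraries 1 was higher and 21 lower, against 6.26% and 6.08% of all genes, with a median of -0.18. The single higher member in VGAT libraries was Mrps34, a mitochondria-specific small subunit protein (chr17:25114072-25116476, + strand), whose exons overlap Nme3 on its own strand and Eme2 and Mapk8ip3 on the other. Mrps34 had 19.2, 30.9 and 37.7 CPM in second-batch DAT libraries, against 0.4, 5.9 and 11.3 CPM in the first batch. In VGAT libraries it had 13.7, 17.5 and 21.0 CPM in the second batch, against 0.4, 4.5 and 8.1 CPM in the first. Its batch difference of 2.33 ± 0.37 (DAT) and 2.20 ± 0.43 (VGAT) on the log2 scale was the largest of any member in each model, and its cell type difference was 0.82 ± 0.30 in the second batch (edgeR adjusted p = 0.0197).

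Some markers of other cells also differed with batch in DAT libraries. All 8 oligodendrocyte markers had counts in every library and summed to 1121 to 2306 CPM in second-batch DAT libraries, against 516 to 770 CPM in the first batch. All 10 astrocyte markers had counts in every library and summed to 1668 to 3018 CPM, against 1022 to 2245 CPM. The 10 microglia markers summed to 47.0 to 137 CPM, against 41.2 to 74.5 CPM, and 7 of them had counts in every second-batch library. The 6 endothelial markers summed to 63.1 to 224 CPM, against 44.6 to 148 CPM. Mitochondrially encoded genes took 0.275 to 0.873% of counts, against 0.088 to 0.297%. Of these measures only the summed oligodendrocyte markers did not overlap between the batches in DAT libraries. In the fit of model by batch, 8 of 8 oligodendrocyte, 8 of 10 astrocyte, 4 of 10 microglia and 1 of 6 endothelial markers were called higher in the second batch in DAT libraries. In VGAT libraries 0, 2, 0 and 0 of the same lists were called higher, and 1, 2, 0 and 0 were called lower. There 0 oligodendrocyte, microglia or endothelial markers were higher at an unadjusted edgeR p below 0.05. Oligodendrocyte markers in VGAT libraries summed to 253 to 997 CPM in the second batch and 354 to 697 CPM in the first. The part of these measures in the members' difference was not tested. Transcript length also ran with the values. Canonical transcripts of members had a median of 1812 bases, against 3175 bases for all genes tested. Across genes, which are not independent replicates, the difference between batches correlated with transcript length at a Spearman rho of -0.26 over the 78 members and -0.41 over 16833 genes tested. The shorter 39 members had a median second-batch log2 fold change of 0.60 and the longer 39 one of 0.41, and medians of 0.03 and -0.15 in the first batch.

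The other genes of mitochondrial translation gave mixed results, set here beside the 30.0% of all genes called higher and 30.4% called lower in the pooled comparison. Of 5 mitoribosomal proteins with other symbols, Aurkaip1 (0.61 ± 0.08) and Chchd1 (0.30 ± 0.08) were called higher in the pooled comparison, Ptcd3 (-0.28 ± 0.06) lower, and Gadd45gip1 (0.25 ± 0.17) and Dap3 (-0.04 ± 0.07) neither. Of 26 assembly genes 10 were higher and 1 lower (median log2 fold change 0.11), among them Mpv17l2 (1.34 ± 0.10) and Ngrn (0.71 ± 0.07), both higher in each batch, and the lower Fastkd2 (-0.55 ± 0.10), an RNA-binding protein. Of 17 translation factors the pooled fit called 0 higher, also at an unadjusted edgeR p below 0.05, and 6 lower (median -0.08). Gfm1, an elongation factor, was at -0.57 ± 0.07 and Taco1, an activator of cytochrome oxidase translation, at -1.02 ± 0.15. In the second batch 5 translation factors were called higher and 5 lower, against 30.1% and 31.3% of all genes. First-batch libraries gave 0 higher and 4 lower, against 14.9% and 15.3% of all genes. Of 17 mitochondrial aminoacyl-tRNA synthetases that were tested, 6 were higher and 5 lower (median -0.01), with Nars2 at 0.64 ± 0.08 and Mars2 at -0.89 ± 0.11. In the pooled comparison the shares of translation factors called lower, and of synthetases called in either direction, lay near those of all genes. Of 11 mitochondrially encoded proteins that were tested 9 were higher and 0 lower, with a median of 1.17, but 9 were called in the second batch, where mt-Nd6 gave 2.42 ± 0.22, and 0 in the first, with 2 at an unadjusted edgeR p below 0.05 there. These RNAs are translated inside the organelle and not by the tagged ribosomes.

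No member was called with age in either model. The comparison of old with young mice, fitted within each model with a batch term, called 0 of 78 members in DAT libraries, where 0.00672% of 14889 genes were called, and 0 of 78 in VGAT libraries, where 0.0256% of 15607 genes were. DESeq2 and limma-voom also called 0 members in both, and 6 members in DAT and 3 in VGAT had an unadjusted edgeR p below 0.05. The median log2 fold change (old over young) was -0.06 in DAT libraries, with 55 of 78 negative, and -0.02 in VGAT libraries, with 54 negative, beside medians of 0.00 over all genes tested. In DAT libraries the median was -0.13 within the second batch and 0.02 within the first. The summed level there was 3172 to 3758 CPM in old mice, against 3742 to 4212 CPM in young mice, in the second batch, and 2821 to 3311 CPM against 2834 to 3001 CPM in the first. In VGAT libraries the within-batch medians were -0.04 in the second and 0.02 in the first. Microglia markers, 8 of 10 with counts in every library of either age, summed to 51.1 to 137 CPM in old DAT mice, against 41.2 to 71.7 CPM in young DAT mice. In the DAT age fit 9 of 10 microglia, 10 of 10 astrocyte, 8 of 8 oligodendrocyte and 6 of 6 endothelial markers were positive. In that order 4, 5, 3 and 1 had an unadjusted edgeR p below 0.05, and 0 were called. The VGAT age fit gave 7, 9, 8 and 5 positive markers in the same lists. Of these 0, 6, 0 and 1 had an unadjusted edgeR p below 0.05, and 0 were called. The part of these markers in the members' values was not tested.

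The members with the smallest p were all small differences. Mrpl49 had 57.9, 76.0 and 87.3 CPM in old DAT mice, against 65.1, 85.2 and 103 CPM in young DAT mice, a log2 difference of -0.24 ± 0.08 (edgeR adjusted p = 0.870). The ranges overlapped over most of their width. Mrps9, a small subunit protein with a bacterial homolog, had 23.1, 31.1 and 35.4 CPM in old DAT mice, against 27.8, 35.4 and 54.6 CPM in young DAT mice (-0.32 ± 0.12, edgeR adjusted p = 0.931). In VGAT mice Mrps9 had the opposite sign, with 25.5, 30.4 and 41.1 CPM in old and 24.1, 30.3 and 36.8 CPM in young mice (0.15 ± 0.07, edgeR adjusted p = 0.826). Its age difference between the models (DAT minus VGAT) was -0.45 ± 0.16 and was not called (edgeR adjusted p = 1.00). The next smallest p of that kind belonged to Mrps31 (-0.38 ± 0.16) and Mrps5 (-0.18 ± 0.10). Mrps31 (-0.30 ± 0.13) and Mrps5 (-0.20 ± 0.08) followed in DAT libraries. Among positive values in DAT libraries Mrpl2, of the large subunit core, had the smallest p (0.12 ± 0.09), followed by Mrpl37, Mrpl53 and Mrpl10 at 0.11, 0.12 and 0.09. In VGAT libraries Mrpl12 (-0.13 ± 0.06), Mrps18a (-0.14 ± 0.06), Mrpl49 (-0.09 ± 0.05) and Mrps35 (-0.12 ± 0.07) had the smallest p below 0, and Mrps9, Mrpl3, Mrpl2 and Mrpl58 above it. Over all members the age difference between the models had a median of -0.03, and edgeR called 0 of 78, with 2 at an unadjusted p below 0.05, where 0% of 16898 genes were called. DESeq2 and limma-voom also called 0. These fits held 1 batch term shared by both models, though batch moved the members in opposite directions in the 2 models. The median SE of a member was 0.16 in the edgeR fit.

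**Figure D5:**
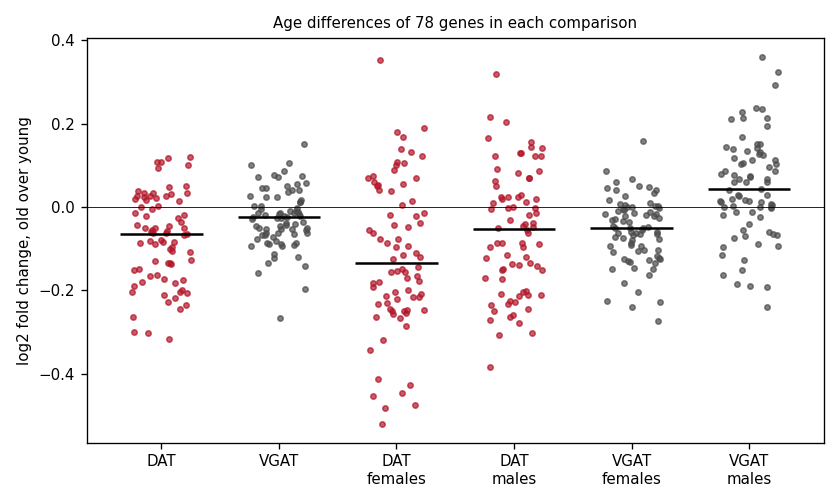
Log2 fold change of old over young mice (y axis) for each of the 78 genes in 6 comparisons (x axis): both sexes of each model, and each sex of each model, DAT in red and VGAT in grey, with a line at the median. The medians lie between -0.14 and 0.04, and no gene passed the test in any comparison.

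Within a sex the members were likewise not called. In DAT females the median log2 fold change (old over young) was -0.14, with 56 of 78 negative, and in DAT males -0.05, with 51 negative. In VGAT females it was -0.05, with 59 negative, and in VGAT males 0.04, with 53 of 78 positive. Calls by edgeR, DESeq2 and limma-voom were 0 in all 4, where edgeR called 0%, 0%, 0.0320% and 0.0315% of all genes tested in the order just given, and 4, 6, 6 and 3 members had an unadjusted edgeR p below 0.05. Mrpl46 in VGAT females had the smallest adjusted p of any age comparison (-0.27 ± 0.08, edgeR adjusted p = 0.517). In DAT females the leading members were Mrps9 (-0.45 ± 0.19), Mrpl40 (-0.43 ± 0.18) and Mrps27 (-0.48 ± 0.22), and in DAT males Mrpl23 (-0.31 ± 0.11), Mrps2 (-0.30 ± 0.11) and Mrpl49 (-0.27 ± 0.11). Mrps35 (-0.22 ± 0.09) and Mrpl23 (-0.24 ± 0.10) followed Mrpl46 in VGAT females. In VGAT males all 3 leading values were positive, for Mrpl2 (0.32 ± 0.11), Mrps6 (0.29 ± 0.13) and Mrps9 (0.24 ± 0.11). The median SE of a member on the log2 scale was 0.18 in DAT females, 0.13 in DAT males, 0.081 in VGAT females and 0.12 in VGAT males, beside 0.11 in DAT and 0.071 in VGAT libraries of both sexes. Differences of that size were not detectable, and larger ones were not called either, such as -0.27 ± 0.08 for Mrpl46 in VGAT females. Whether the sexes differ in these values was not tested.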

How the data were processed

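Per the labels and the study's methods, the authors trimmed reads, aligned them to mm39 (STAR 2.7.10b) and ran featureCounts over genes. Its version and strand setting are not given in the sources used here. The deposited values are raw counts for 57180 genes in 37 libraries, 1 per mouse. The authors' later removal of low counts and glial genes and their correction for collection date, sequencing date, duplication and depth are not in these tables, and only the batch label stood for them here. Symbols were trimmed before matching.

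Tests on counts ran under R 4.3.3 with edgeR 4.0.16, using TMM factors, filterByExpr with a minimum count of 10, a robust quasi-likelihood fit, Benjamini-Hochberg adjustment over all genes tested, and a call at an adjusted p below 0.05. Cell types were compared in 1 fit of all 37 libraries (groups of model and age, and batch). Ages were compared within each model, and within each model and sex, with a batch term. A fit of model by batch was added after the data were seen. CPM used TMM factors. All 78 members passed the count filter in every fit. No 2 libraries of the same condition were near-identical over 70 pairs (lowest chi-square per degree of freedom 5.46). At 13841253 counts, the lowest library total, the precision of low members is limited by counting. The fits of cell type and of age in each model were run on simulated counts. These held no batch effect, so they cannot judge the differences between batches.

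Alternatives were DESeq2 1.42.0, limma-voom (limma 3.58.1), RLE factors, library totals, count filters of 50 and none, no batch term, sex as a term, a replicate block, single batches, mice of the main ages, and each library left out. The members and lists were chosen with earlier results of these data known. Genes named are, for the cell type comparison, the 8 higher and 8 lower members with the smallest p among those called, for age in each model the 4 in each direction, the 3 with the smallest p in other age comparisons, the 5 highest and 5 lowest by level per kilobase, the S18 paralogs, the stalk, Mrpl58 and Mrps36, and up to 4 of each other list. Mrps14, Mrpl19, Mrpl42, Mrpl45, Mrpl46, Mrpl48, Mrps21 and Mrps34 in the comparisons by batch lie outside this rule and were chosen after their values were seen.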

Additional observations from a re-analysis of the deposited data

Results flagged for a closer look

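Among 13 groups of 4 to 10 libraries whose summed member level was checked for a library far from the others, 2 held one, where chance flags about 1 in 20 groups. The old DAT male of replicate 1 had a summed level of 3311 CPM, against 3001 CPM in the nearest of the 8 first-batch DAT libraries. The old VGAT female of replicate 1 had 3237 CPM, against 2761 CPM in the nearest of the 5 old VGAT females. It is the mouse of 24 months and the only first-batch library of that group, and age and batch cannot be told apart there.

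The cell type difference was not the same in the 2 batches. The tested difference (second minus first) was called higher for 53 members and lower for 0 by edgeR, with 65 at an unadjusted p below 0.05.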

How the results depend on the processing

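The first batch alone gave 7 members higher and 22 lower in DAT over VGAT (median log2 fold change -0.11), where 21.5% and 22.4% of all genes were called, 5 and 16 in young mice (median -0.12, all genes 15.8% and 16.4%) and 3 and 15 in old mice (median -0.060, all genes 12.9% and 14.9%). The second batch alone gave 60 higher and 4 lower (median 0.44, all genes 26.4% and 30.3%), 57 and 4 in young mice (median 0.50, all genes 21.8% and 25.6%) and 46 and 3 in old mice (median 0.43, all genes 19.95% and 23.6%). In old mice a batch term for each model, chosen after seeing the data, gave a median of 0.20, and no batch term gave 4 lower. For age in DAT females the first batch alone gave a median of -0.0046, with 1 old mouse against 2 young ones, the lone mouse being assumed to vary like the others. For age in DAT males it gave 0.042, the second batch alone -0.16 and no batch term -0.15. Of named members, Mrpl12 was called in the other direction in the first batch alone (-0.25 ± 0.06, edgeR adjusted p = 0.00338). Mrpl58 (-0.063 ± 0.067, edgeR adjusted p = 0.472) and Mrps18b (-0.039 ± 0.14, adjusted p = 0.851) changed sign there and were not called. The cause was not tested. Over 2433 values of named members, 2405 kept their side of the threshold, 31 of these changing sign without a call. A further 24 lost their call with the same sign and 1 (Mrps36, first batch alone) gained one. The other 3 are the values of Mrpl12, Mrpl58 and Mrps18b just given. With each library left out, 44 to 51 members were called higher and 7 to 10 lower in DAT over VGAT (young 36 to 44 and 5 to 6, old 31 to 42 and 6 to 8), and 0 in any age comparison, whose medians crossed 0 in DAT males (-0.11 to 0.0085), VGAT males (-0.0044 to 0.10) and the difference between models (-0.07 to 0.02). Replicate numbers were not taken to pair the samples, since the labels tie them to no shared litter or day and not every pair correlated above 0.1. Over 17 pairs, deviations of same-numbered libraries from their group means correlated at -0.27 to 0.52 (8 above 0.1), and deviations from means within batches at -0.07 to 0.39 (3 above 0.1). The replicate block gave 44 higher and 8 lower, with a median of 0.26, and no age call. Among named members it ended only the call of Mrpl1. VGAT males of the first batch alone could not be fitted. Depth limits low members: Mrps34 had as few as 7 counts.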
